A study of Gallus gallus with 3 samples.

Results

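Gene expression in the mid/hindgut endoderm of the chick embryo was set against that in early endoderm, using 2 of the study's 3 Affymetrix Chicken Genome Arrays. The mid/hindgut sample, from Hamburger-Hamilton stages 8 to 10, is the gut endoderm lying behind the prospective small intestine. It was cut out together with mesenchyme, held for 30 minutes in 0.03% collagenase and then freed of that mesenchyme. The foregut sample, from stages 10 to 11 and from in front of the anterior intestinal portal, was prepared in the same way, and its values are quoted only beside those of the 2 arrays compared. The early sample is the definitive endoderm of 500 embryos at stages 4 to 5, lifted off the mesenchyme with a needle and, as far as the labels say, without enzyme. Each sample was a pool gathered every 4 hours over 1 day, and 5 µg of its total RNA went onto 1 array. The labels name no strain, genotype or treatment other than incubation. With 1 array per tissue no difference has a replicate error or a p-value, and stage, position in the gut and way of dissection cannot be told apart.

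All genes with a probe set assigned to a single gene were considered, and grouped by function into lists of secreted proteins, matrix, transport, enzymes, adhesion, signalling and nuclear factors. HOX genes are included in the totals over all genes but are not described. A gene counted as measured where its scaled signal exceeded a floor of 22.1 units on either array, which held for 10745 of 13008 genes. Signal is the array's fluorescence summary on a linear scale. Values below the floor were set to it before a fold was taken, so a fold against such a value is given as "at least". Folds whose lower signal lay above the floor but under 1.5 times it are called near the floor, and are also best read as bounds. All folds are mid/hindgut over early or the inverse, and signals of different genes were not compared with each other.

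The endoderm gives rise to the epithelium of the gut and of the organs that bud from it. At the early stages the definitive endoderm has only just moved in from the primitive streak, displaces the hypoblast towards the edge and is patterned by Nodal, Wnt, BMP and FGF signals. By the later stages the sheet is folding into a tube and its hind part lies next to vessels, blood islands and splanchnic mesoderm. Mature hindgut and midgut epithelium is known for brush border transporters, lipoprotein assembly, desmosome-rich junctions and secretion into the lumen, and the yolk sac endoderm, which is continuous with it in the bird, for uptake of yolk and release of plasma proteins.

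Most genes differed little between the 2 tissues. Of 10745 genes, 872 (8.12%) had at least a 2-fold higher signal in mid/hindgut than in early endoderm, 551 (5.13%) had at least a 2-fold lower one, and 9322 (86.8%) lay within 2-fold. At 4-fold the counts were 251 higher (2.34%) and 145 lower (1.35%). The median log2 difference over measured genes was 0.03. Of the higher genes 234 were below the floor in early endoderm, and of the lower genes 111 were below it in mid/hindgut. Without scaling, the median shifted to -0.22 and the counts turned to 629 higher and 849 lower, so directions here are relative to the trimmed mean of each array. The closest to a repeat measurement was a second probe set of the same gene. Between 2 probe sets of 1 gene the log2 ratio had a standard deviation of 0.31 per probe set, over 4134 genes with signal on every array. Among these genes 351 were 2-fold apart on the brighter probe set. On the second, 94.9% of the 351 had the same direction and 58.1% also reached 2-fold. Calls that rest on a signal below the floor are not among the 351. Of all called genes, 69.3% of the higher and 70.8% of the lower kept their call over the median of probe sets, where genes with 1 probe set always do. A probe set below the floor on both arrays enters that median as no difference. Here and below, a smaller median can therefore reflect probe sets without signal rather than a contrary measurement. The spread between probe sets covers probe differences only and no difference between pools of embryos.

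**Figure D1:**
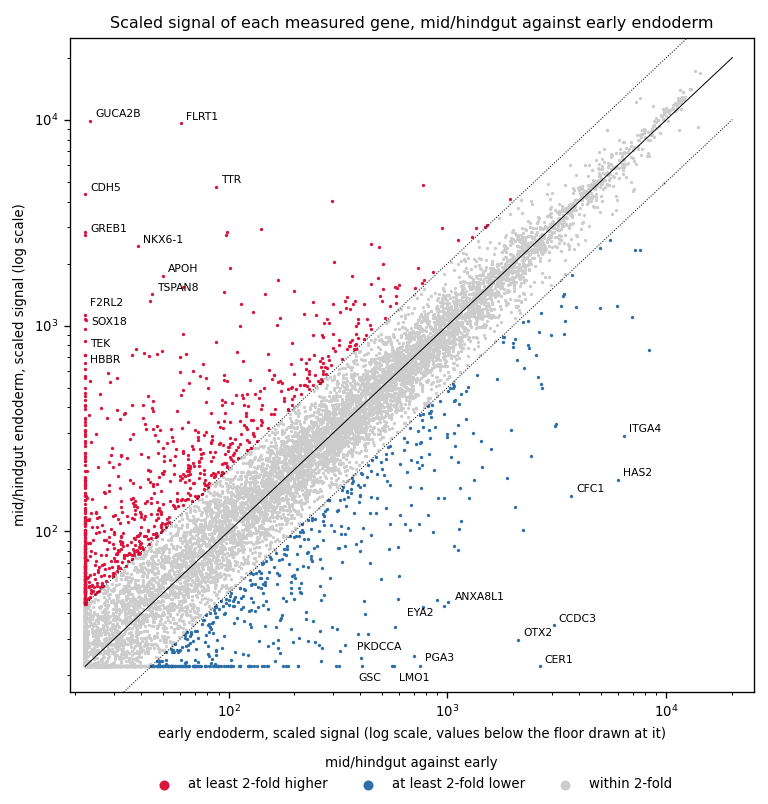
Scaled signal of the 10745 measured genes in mid/hindgut endoderm (vertical axis) against early endoderm (horizontal axis), both on log scales, with values below the floor of 22.1 drawn at it. Each point is 1 gene; the solid line marks equality and the dotted lines 2-fold, the 12 highest and 12 lowest genes other than HOX genes are labelled, and 872 genes lie above the upper dotted line or on it against 551 below the lower one or on it.

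The 3 arrays had comparable quality figures. The 2% trimmed means of deposited signal were 159.8 in mid/hindgut, 155 in foregut and 192 in early endoderm, and 58.9% to 60.8% of chicken probe sets lay above the floor. The 3' to 5' signal ratio of actin was 2.19 in mid/hindgut, 1.69 in foregut and 1.55 in early endoderm, while that of GAPDH was between 0.972 and 1.01. Immediate early genes can respond within minutes to handling of a tissue. Of 17 such genes 7 (41.2%) were at least 2-fold higher in mid/hindgut and 0 lower, beside 8.12% and 5.13% over all measured genes. Only 12 of the 17 were above the floor on both arrays compared, and a gene measured through mid/hindgut alone could not have been called lower. The median log2 difference was 0.92 over the 17 and 0.94 over those 12. EGR1 had 329.9 in mid/hindgut, 353 in foregut and 9.65 in early endoderm. For EGR1 the median over its probe sets was 2.85 on the log2 scale, in place of 3.90.

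The endoderm label was checked on 12 marker genes, of which 10 were measured, and markers of other cell types were summed beside them. The 12 endoderm markers summed to 22375 in mid/hindgut, 17232 in foregut and 30515 in early endoderm. The median log2 difference over the 10 was -0.53. EPCAM, an epithelial adhesion protein, had 8896 in mid/hindgut, 9297 in foregut and 5356 in early endoderm, so it was present in all. SOX17, a transcription factor of definitive endoderm, had 4947 in mid/hindgut, 878 in foregut and 9773 in early endoderm, within 2-fold by this probe set but at -2.05 on the log2 scale when both its probe sets are combined by their median. FOXA2 had 868 in mid/hindgut and 1488 in early endoderm, and HHEX had 1308 in mid/hindgut and 1600.3 in early endoderm, while FOXA1 and GATA4 were below the floor in both of these tissues. GATA5 had 3350 in mid/hindgut, 1228 in foregut and 3472 in early endoderm, within 2-fold. Of the 10, CDH1 and CLDN3 were at least 2-fold higher and CXCR4, GATA6 and HNF4A at least 2-fold lower, and the call of CLDN3 was lost under 3 of 4 other scalings. HNF4A, 2.01-fold lower, lost its call under 4 alternatives, both other floors, the pseudocount and the median over probe sets. Markers of endothelium summed to 10382 in mid/hindgut, 8865 in foregut and 479 in early endoderm, with 15 of 16 measured markers at least 2-fold higher in mid/hindgut. Only 8 of the 16 were above the floor on both arrays compared. The others counted as measured through mid/hindgut alone, so they could not have been called lower. The median log2 difference was 3.52 over the 16 and 2.13 over those 8. The calls of EMCN, ENG, PECAM1, TIE1 and VWF were lost with the floor raised. MMRN2 and ROBO4 were below the floor in both tissues compared. Markers of blood summed to 7306 in mid/hindgut, 4095 in foregut and 741 in early endoderm, with 8 of 11 higher. Of these 11 blood markers 6 were above the floor on both arrays compared, with a median log2 difference of 4.03, against 3.44 over the 11. The call of TAL1 was lost with the floor raised. Another 4, MYB, RUNX1, RHAG and SLC4A1, were below the floor in both tissues compared. Most of the foregut sum came from LMO2, CA2 and TFRC, with 1825.5, 942.5 and 644. The globins HBA1, HBAD, HBBR, HBE and HBZ were each lower in foregut than in mid/hindgut, HBZ with 297 against 1536. Gut mesenchyme markers went both ways, 6 higher and 4 lower of 15, and summed to 1655 in mid/hindgut, 6109 in foregut and 3009 in early endoderm. Of these 15, 9 were above the floor on both arrays compared. The higher calls of COL3A1, DCN, LUM and PRRX1 were lost with the floor raised and that of ISL1 without scaling. POSTN kept its call. The lower calls, of COL1A1, COL1A2, PDGFRA and TWIST1, were lost under no alternative that gave them a value. Markers of paraxial mesoderm had 0 of 13 higher and 5 lower, and summed to 1675 in mid/hindgut and 2669 in early endoderm. Neural ectoderm markers had 0 of 11 higher and 3 lower, and summed to 1929 in mid/hindgut and 4560 in early endoderm. Cardiac mesoderm had 1 of 13 higher and 3 lower, and epiblast and germ cells 0 of 10 higher and 2 lower. Neural crest and surface ectoderm had 2 of 13 higher and 2 lower. The lower calls of FOXC1, PCDH8, RIPPLY1, NCAM1, TNNT2 and DAZL were lost under some alternative. In bulk tissue fewer cells of a type and less RNA per cell cannot be told apart, and the part these cells have in the differences below was not tested.

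Functional lists differed in how many of their genes were apart. Secreted proteins had 53 of 244 measured genes at least 2-fold higher and 37 lower, and matrix proteins 24 of 102 higher and 10 lower. Adhesion had 52 of 288 higher and 39 lower, and signalling 116 of 816 higher and 70 lower. Transport, with 51 of 465 higher and 32 lower, and enzymes, with 70 of 658 higher and 27 lower, lay nearer to the share over all measured genes. That share was 8.12% higher and 5.13% lower, and the counts of single lists below are to be read beside it. Among genes with at least 1000 units on either array, 76 of 1836 were higher and 78 lower, or 4.14% and 4.25%.

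**Figure D2:**
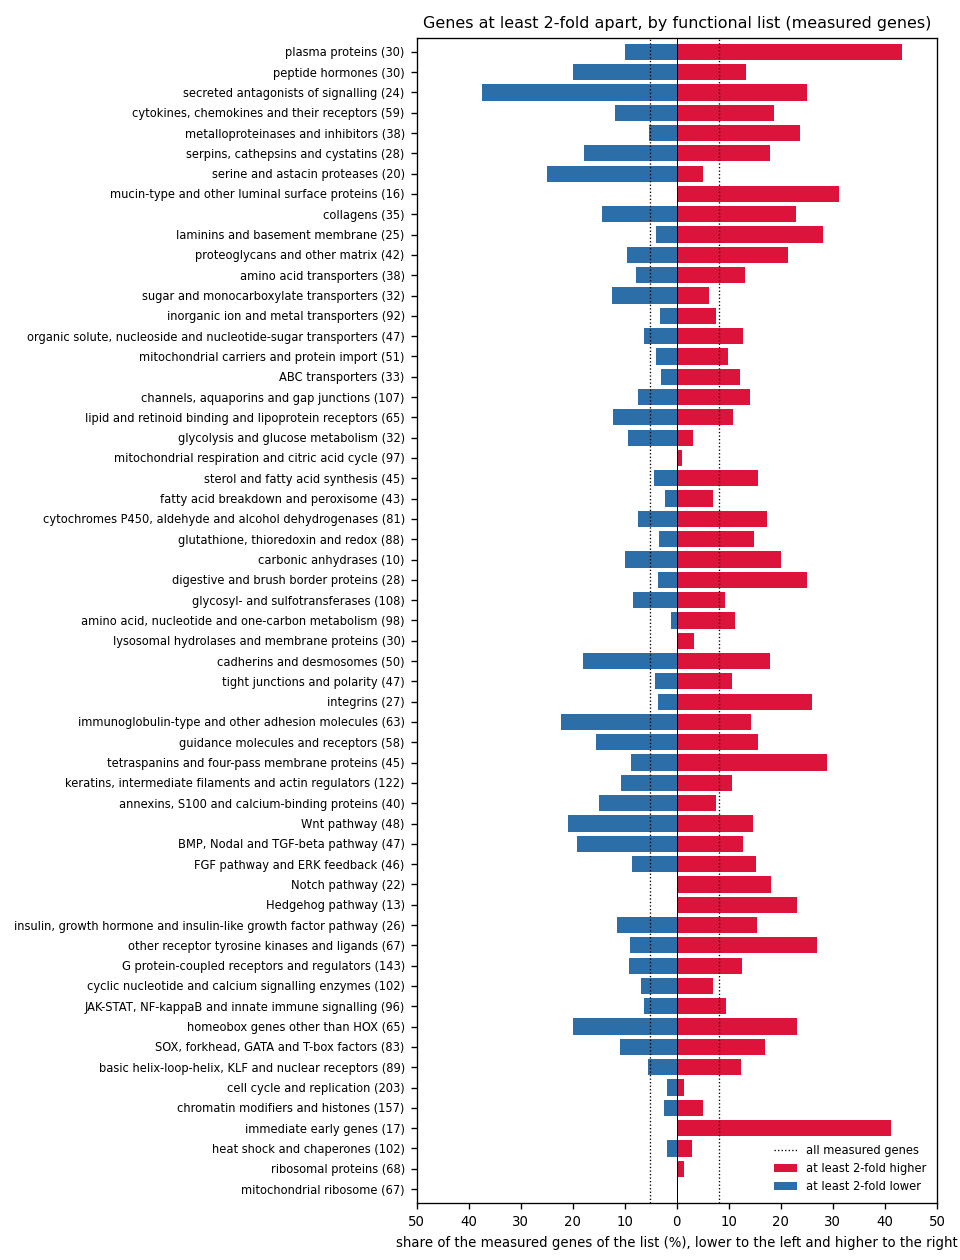
Share of the measured genes of each functional list shown (number of genes in parentheses) that were at least 2-fold higher in mid/hindgut than in early endoderm (bars to the right) or at least 2-fold lower (bars to the left), in percent. The dotted lines mark the shares over all measured genes, 8.12% and 5.13%; plasma proteins and immediate early genes reach farthest to the right and secreted antagonists of signalling farthest to the left, while respiration, ribosomal and cell cycle genes have short bars.

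A secreted peptide of the gut lumen and its receptor were higher in mid/hindgut. GUCA2B, which in mammals is uroguanylin, a peptide released into the gut lumen to control salt and water secretion, had 9887 in mid/hindgut, 25.7 in foregut and 23.4 in early endoderm. That is 422-fold over early endoderm, a value near the floor, and the gene stood high in mid/hindgut alone. GUCY2C, the membrane guanylate cyclase that binds this peptide, had 98.2 in mid/hindgut, 27.0 in foregut and 21.6 in early endoderm, at least 4.43-fold higher, a call that was lost with the floor raised to the 60th percentile. PDE5A, which breaks down cyclic GMP, had 220.4 in mid/hindgut, 99.4 in foregut and 73.0 in early endoderm, 3.02-fold higher. The ligand, its receptor and this phosphodiesterase all had their highest signal in mid/hindgut. They were named for ranking among the highest genes of their lists, so this shared direction follows from the choice. It is not a result about the pathway. Among 102 cyclic nucleotide and calcium signalling enzymes 7 were higher and 7 lower.

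Among 30 measured plasma proteins, 13 (43.3%) were at least 2-fold higher in mid/hindgut and 3 (10%) lower. Over all measured genes the shares were 8.12% and 5.13%. Only 16 of the 30 were above the floor on both arrays, and the others counted as measured through 1 array alone. The median log2 difference was 0.60 over the 30 and 0.16 over those 16. TTR, transthyretin, the carrier of thyroid hormone and of retinol-binding protein, had 4718 in mid/hindgut, 282 in foregut and 87.5 in early endoderm, 53.9-fold higher. APOH, a phospholipid-binding plasma protein, had 1748 in mid/hindgut, 61.3 in foregut and 50.0 in early endoderm, 35.0-fold higher. FGB, the fibrinogen beta chain, had 2845 in mid/hindgut, 785 in foregut and 98.2 in early endoderm, 29.0-fold higher. All 3 fibrinogen chains were called, since FGG had 455 in mid/hindgut and 42.8 in early endoderm, and FGA 58.6 in mid/hindgut and 3.08 in early endoderm. The early signal of FGA was below the floor, so its fold is only a bound. Other coagulation proteins did not move as a block. F2, prothrombin, had 177 in mid/hindgut, 40.2 in foregut and 1.71 in early endoderm, at least 8.00-fold higher, and TFPI, an inhibitor of the clotting cascade, had 413 in mid/hindgut, 265 in foregut and 3.65 in early endoderm, at least 18.6-fold higher. F10 was 3.05-fold lower, with 41.7 in mid/hindgut and 127 in early endoderm, and F5 was 2.32-fold lower, with 169 in mid/hindgut and 392 in early endoderm. APOA1, the main protein of high-density lipoprotein, was also lower, with 1244 in mid/hindgut, 990.3 in foregut and 3305 in early endoderm, a 2.66-fold difference. TF, transferrin, with 1981 in mid/hindgut and 2012 in early endoderm, and RBP4A, a retinol-binding protein, with 2119 in mid/hindgut and 2649 in early endoderm, were within 2-fold. The log2 difference over the median of probe sets was 2.49 for TF, so that it would be called higher, and for TTR it was 2.88 in place of 5.75. Several of these proteins are also made by hypoblast and yolk sac endoderm. That marker list had 3 of 13 measured genes higher, TTR, LGALS2 and APOB, and 4 lower, CER1, GSC, APOA1 and HNF4A. It summed to 10513 in mid/hindgut, 3486 in foregut and 10632.5 in early endoderm, while AFP and ALB were below the floor in both tissues compared. The near-equal sums hold opposite differences. LGALS2 had 1422 in mid/hindgut and 146 in early endoderm, and CER1 had 4.72 in mid/hindgut and 2641 in early endoderm. The part of hypoblast and yolk sac endoderm was not tested.

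Proteins of the epithelial surface and lumen were higher in 5 of 16 genes (31.25%) and lower in 0, beside 8.12% and 5.13% over all measured genes. Only 11 of the 16 were above the floor on both arrays, and a gene measured through mid/hindgut alone could not have been called lower. The median log2 difference was 0.40 over the 16 and 0.92 over those 11. LGALS2, a small galectin that binds galactosides, had 1422 in mid/hindgut, 43.3 in foregut and 146 in early endoderm, 9.72-fold higher. It is also in the marker list of hypoblast and yolk sac endoderm. LGALS3 had 714 in mid/hindgut, 256 in foregut and 43.2 in early endoderm, 16.5-fold higher, but the call rested on a probe set that can bind more than 1 transcript. AGR2, an endoplasmic reticulum protein needed for mucin folding in the mouse gut, had 181 in mid/hindgut, 112 in foregut and 42.9 in early endoderm, 4.22-fold higher. SPP1, osteopontin, a secreted phosphoprotein that binds integrins, belongs to the matrix list and had 2948 in mid/hindgut, 144 in foregut and 140.2 in early endoderm, 21.0-fold higher. As with GUCA2B, the foregut signals of LGALS2 and SPP1 lay far below those of mid/hindgut. Peptide hormones, by contrast, were called lower in 6 of 30 and higher in 4, GUCA2B being 1 of the higher ones. POMC, the precursor of melanocortins and corticotropin, had 17.6 in mid/hindgut, 32.3 in foregut and 408 in early endoderm, at least 18.4-fold lower. GHRH, growth hormone-releasing hormone, had 42.9 in mid/hindgut, 28.0 in foregut and 769 in early endoderm, 17.9-fold lower. PENK, the precursor of enkephalins, had 59.3 in mid/hindgut, 32.5 in foregut and 291 in early endoderm, 4.91-fold lower. For LGALS3 the median over probe sets was a log2 difference of 2.43 in place of 4.05.

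Secreted antagonists of signalling were divided, 6 of 24 higher and 9 lower. CER1, cerberus, which blocks Nodal and BMP ligands and marks the anterior endoderm and hypoblast, had 4.72 in mid/hindgut, 2.41 in foregut and 2641 in early endoderm, at least 119-fold lower. CHRD, chordin, a BMP antagonist, had 70.4 in mid/hindgut, 401 in foregut and 441 in early endoderm, 6.27-fold lower, and FST, follistatin, which binds activin, had 27.9 in mid/hindgut, 31.1 in foregut and 151 in early endoderm, 5.39-fold lower near the floor. SFRP1, a soluble Wnt inhibitor, had 162 in mid/hindgut, 1213 in foregut and 1136 in early endoderm, a log2 difference of -2.81, and DKK4 had 178 in mid/hindgut, 808 in foregut and 1321 in early endoderm, 7.42-fold lower. For CHRD, SFRP1 and DKK4 the foregut value lay on the side of early endoderm. DKK3, of the same family as DKK4, went the other way. It had 2481 in mid/hindgut, 1288 in foregut and 447 in early endoderm, 5.55-fold higher, and NOG, noggin, a BMP antagonist like chordin, had 118 in mid/hindgut, 77.1 in foregut and 16.6 in early endoderm, at least 5.34-fold higher, a call lost with the floor at the 60th percentile. The log2 difference of SFRP1 was -1.40 as the median over its probe sets.

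Of 59 cytokines, chemokines and their receptors 11 were higher (18.6%) and 7 lower (11.9%). CXCR4, a chemokine receptor that guides endoderm and germ cell movement in fish, had 1102 in mid/hindgut, 1277 in foregut and 6944 in early endoderm, 6.30-fold lower. Its ligand CXCL12 had 261 in mid/hindgut, 1985 in foregut and 1086 in early endoderm, 4.16-fold lower, so the receptor was low in both later tissues and the ligand in mid/hindgut alone. CXCL14 had 37.8 in mid/hindgut, 18.2 in foregut and 226 in early endoderm, 5.98-fold lower. IL1R1, the interleukin-1 receptor, had 748 in mid/hindgut, 373 in foregut and 109 in early endoderm, 6.87-fold higher. IL22RA1, the epithelial subunit of the interleukin-22 receptor, had 239 in mid/hindgut, 30.7 in foregut and 0.626 in early endoderm, at least 10.8-fold higher. TNFRSF19, a receptor of the tumour necrosis factor family that is also a Wnt target, had 372 in mid/hindgut, 57.4 in foregut and 33.3 in early endoderm, 11.2-fold higher. TNFRSF19 had a log2 difference of 1.77 as the median over its probe sets, in place of 3.48.

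Of 20 serine and astacin proteases 5 were lower and 1 higher, and of 38 metalloproteinases and inhibitors 9 were higher and 2 lower, while serpins, cathepsins and cystatins had 5 of 28 higher and 5 lower. PCSK5 and PCSK6 are proprotein convertases that cleave precursors of the TGF-beta family, Nodal among them in the mouse. PCSK6 had 99.6 in mid/hindgut, 215 in foregut and 855 in early endoderm, 8.58-fold lower, and PCSK5 had 559.8 in mid/hindgut, 695 in foregut and 2591 in early endoderm, 4.63-fold lower. LGMN, legumain, a lysosomal asparaginyl endopeptidase, had 1250.1 in mid/hindgut, 1394 in foregut and 5947 in early endoderm, 4.76-fold lower. CTSB, cathepsin B, was 2.52-fold lower, with 790.2 in mid/hindgut and 1994 in early endoderm, and CSTA, a cystatin that inhibits such enzymes, was 6.63-fold lower, with 145 in mid/hindgut and 963 in early endoderm. MMP2, a gelatinase typical of mesenchyme, had 472 in mid/hindgut, 779 in foregut and 10.1 in early endoderm, at least 21.3-fold higher. SPINK5, an inhibitor of serine proteases in epithelia, had 1657 in mid/hindgut, 2968 in foregut and 168 in early endoderm, 9.84-fold higher. As the median over probe sets the log2 difference was -1.25 for PCSK6 and -1.18 for PCSK5, in place of -3.10 and -2.21.

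**Figure D3:**
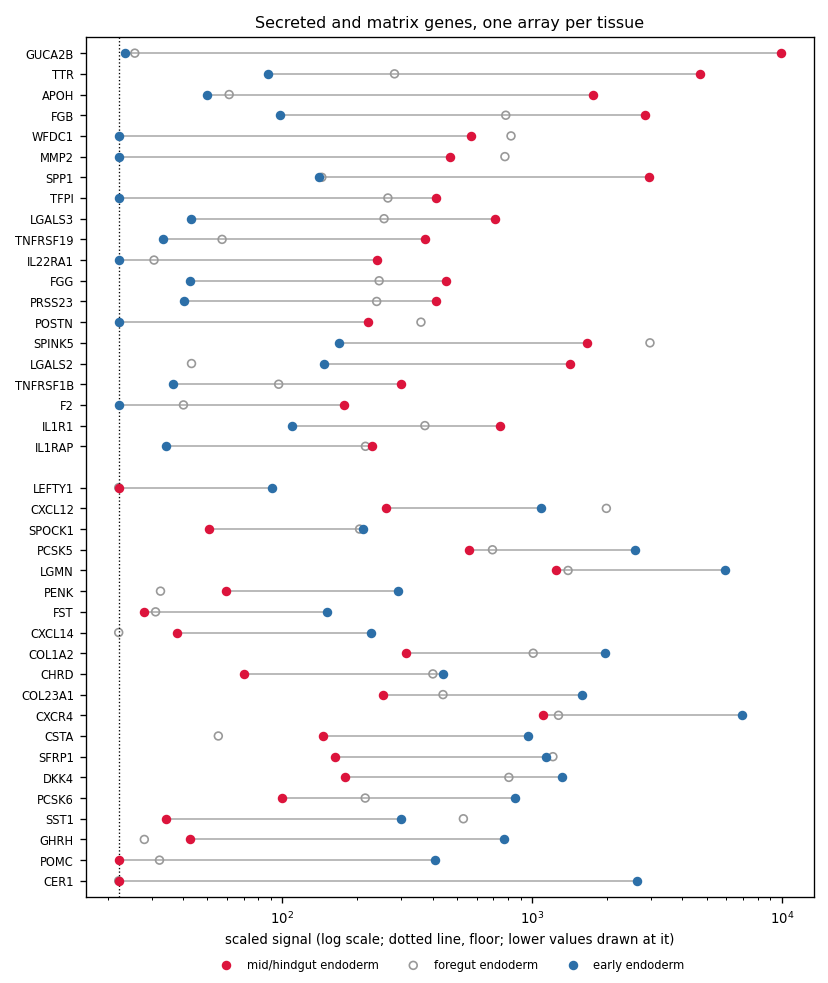
Scaled signal (log scale) of the 20 highest and the 20 lowest named genes of the secreted and matrix lists, with mid/hindgut endoderm in red, foregut in open grey and early endoderm in blue, 1 array each, and values below the floor of 22.1 (dotted) drawn at it. GUCA2B is high in mid/hindgut, 9887 against 23.4 in early endoderm, and CER1 runs the other way, 4.72 against 2641.

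Of 25 laminin and basement membrane genes 7 were higher and 1 lower, and of 35 collagens 8 were higher and 5 lower. COL4A2, a chain of the network-forming collagen of basement membranes, had 495 in mid/hindgut, 381 in foregut and 80.8 in early endoderm, 6.12-fold higher. Its partner chain COL4A1 had 168 in mid/hindgut, 100.2 in foregut and 28.6 in early endoderm, 5.86-fold higher near the floor, though the median over its probe sets stayed within 2-fold. LAMA1, a laminin alpha chain of early epithelia, was 2.46-fold higher, with 756 in mid/hindgut, 984 in foregut and 307 in early endoderm. DAG1, dystroglycan, the laminin receptor, was 2.63-fold higher, with 219.7 in mid/hindgut and 83.6 in early endoderm. The laminin chains LAMC1 and LAMB1 were within 2-fold. COL1A2, a fibrillar collagen chain, had 312 in mid/hindgut, 1011 in foregut and 1957 in early endoderm, 6.27-fold lower, and COL1A1 had 61.0 in mid/hindgut, 1000.2 in foregut and 195 in early endoderm, 3.20-fold lower. COL3A1, another fibrillar collagen, went the other way, with 105 in mid/hindgut, 177 in foregut and 48.9 in early endoderm, a 2.14-fold difference that was lost without scaling and in several other alternatives. COL23A1, a transmembrane collagen, had 252 in mid/hindgut, 440.2 in foregut and 1585 in early endoderm, 6.28-fold lower. FN1, fibronectin, had 6844 in mid/hindgut, 10037 in foregut and 8262 in early endoderm, within 2-fold. Medians over probe sets were a log2 difference of 1.76 for COL4A2 and -1.92 for COL1A2, in place of 2.61 and -2.65.

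Of 108 glycosyl- and sulfotransferases, which build and modify sugar chains, 10 were higher (9.26%) and 9 lower (8.33%). Over all measured genes these shares were 8.12% and 5.13%. HAS2, the enzyme that makes hyaluronan in the early embryo, had 179 in mid/hindgut, 3324 in foregut and 6009 in early endoderm, 33.6-fold lower. HAPLN1, a matrix protein that links hyaluronan to proteoglycans, had 550.2 in mid/hindgut, 116 in foregut and 1690.1 in early endoderm, 3.07-fold lower. SULF1, which removes sulfate from heparan sulfate outside the cell, had 46.6 in mid/hindgut, 593 in foregut and 896 in early endoderm, 19.2-fold lower. HAS2 and SULF1 were thus low in mid/hindgut alone among the 3 arrays. SULF2, the paralogue of SULF1, went the other way, with 116 in mid/hindgut, 72.1 in foregut and 36.3 in early endoderm, 3.20-fold higher. HS3ST1, a sulfotransferase of heparan sulfate, had 69.3 in mid/hindgut, 87.9 in foregut and 11.0 in early endoderm, at least 3.13-fold higher, and the calls of both were lost with the floor at the 60th percentile. ST8SIA2, which builds polysialic acid, had 25.7 in mid/hindgut, 162 in foregut and 171 in early endoderm, 6.67-fold lower near the floor. CHST15, a sulfotransferase of chondroitin sulfate, had 1216 in mid/hindgut, 130.0 in foregut and 343 in early endoderm, 3.55-fold higher, and GALNT18, of a family that starts mucin-type glycans, had 375 in mid/hindgut, 181 in foregut and 33.8 in early endoderm, 11.1-fold higher. Medians over probe sets gave a log2 difference of -2.98 for SULF1 and 1.56 for GALNT18, in place of -4.27 and 3.47.

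Of 38 amino acid transporters 5 were higher and 3 lower, and of 32 sugar and monocarboxylate transporters 2 were higher and 4 lower. SLC7A9 and SLC3A1 form the brush border importer of cystine and basic amino acids in mammals. SLC7A9, the catalytic chain, had 658 in mid/hindgut, 21.8 in foregut and 21.7 in early endoderm, at least 29.7-fold higher. SLC3A1, its heavy chain, had 542 in mid/hindgut, 61.4 in foregut and 95.3 in early endoderm, 5.69-fold higher. Both chains were therefore high in mid/hindgut alone. SLC2A2, a facilitative glucose transporter of liver, pancreas and intestine, had 274 in mid/hindgut, 11.6 in foregut and 11.4 in early endoderm, at least 12.4-fold higher. Other members of the same family went the opposite way. SLC2A14 had 132 in mid/hindgut, 162 in foregut and 2044 in early endoderm, 15.5-fold lower, and SLC2A9L, listed as similar to a urate transporter, had 33.7 in mid/hindgut, 105 in foregut and 313 in early endoderm, 9.29-fold lower. SLC2A1, the widespread glucose transporter, had 1008 in mid/hindgut, 2405 in foregut and 1006 in early endoderm. The median over probe sets was a log2 difference of 3.26 for SLC7A9, -2.76 for SLC2A14 and -1.87 for SLC2A9L, in place of 4.89, -3.96 and -3.21.

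Among 92 ion and metal transporters 7 were higher (7.61%) and 3 lower (3.26%), both below the shares over all measured genes. SLC30A10, which exports manganese, had 355 in mid/hindgut, 19.1 in foregut and 28.0 in early endoderm, 12.7-fold higher near the floor. Of 107 channels, aquaporins and gap junction genes 15 were higher (14.0%) and 8 lower (7.48%). GJA5, a connexin of arterial endothelium and heart, had 310.0 in mid/hindgut, 279 in foregut and 16.1 in early endoderm, at least 14.0-fold higher, beside the endothelial markers given above. AQP5, a water channel of secretory epithelia, had 141 in mid/hindgut, 37.2 in foregut and 37.6 in early endoderm, 3.74-fold higher. CACNG3, an auxiliary subunit first known from neurons, had 29.0 in mid/hindgut, 52.0 in foregut and 249 in early endoderm, 8.57-fold lower near the floor. Of 33 ABC transporters 4 were higher and 1 lower. ABCG2, an exporter of urate and drugs, had 409.8 in mid/hindgut, 89.9 in foregut and 93.2 in early endoderm, 4.40-fold higher. Among 47 organic solute carriers 6 were higher and 3 lower, with SLC44A3, of the choline transporter-like family, at 282 in mid/hindgut, 329.9 in foregut and 35.3 in early endoderm, 8.00-fold higher. By the median over probe sets the log2 difference was 1.29 for SLC30A10 and -1.55 for CACNG3, in place of 3.67 and -3.10.

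Lipid and retinoid binding proteins and lipoprotein genes had 7 of 65 members higher (10.8%) and 8 lower (12.3%), beside 8.12% and 5.13% over all measured genes. MTTP, which loads lipid onto apolipoprotein B, had 150.5 in mid/hindgut, 21.6 in foregut and 18.5 in early endoderm, at least 6.80-fold higher. APOB itself had 75.2 in mid/hindgut, 15.7 in foregut and 8.66 in early endoderm, at least 3.40-fold higher, a call lost with the higher floor and over the median of its probe sets. SAR1B, a GTPase needed to export chylomicrons from the endoplasmic reticulum in humans, had 1273 in mid/hindgut, 808 in foregut and 417 in early endoderm, 3.05-fold higher. All 3 had their highest signal in mid/hindgut, but they were named for ranking high in their lists, so this shared direction follows from the choice. Other lipid genes went the other way, APOA1 above among them. MOGAT2 had 26.4 in mid/hindgut and 325 in early endoderm, 12.3-fold lower near the floor, a call lost over the median of its probe sets. DGAT2 had 25.4 in mid/hindgut and 80.2 in early endoderm, 3.16-fold lower near the floor. Its call was lost with the higher floor and under another scaling. PLIN2, the coat protein of lipid droplets, had 1047 in mid/hindgut, 639 in foregut and 3423 in early endoderm, 3.27-fold lower. MTTP had a log2 difference of 1.92 as the median over its probe sets, in place of 2.76.

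Some enzymes and carriers of retinoic acid metabolism are given next, picked by their rank within larger lists. Only CYP26A1 was instead chosen after its value was seen. RDH10, which oxidises retinol to retinal, had 1213 in mid/hindgut, 534 in foregut and 4978 in early endoderm, 4.10-fold lower. ALDH1A2, which makes retinoic acid from retinal, had 145 in mid/hindgut, 209 in foregut and 904 in early endoderm, 6.22-fold lower, its paralogue ALDH1A3 had 28.1 in mid/hindgut, 203 in foregut and 341 in early endoderm, 12.2-fold lower near the floor, and ALDH1A1 had 39.2 in mid/hindgut, 2.51 in foregut and 176 in early endoderm, 4.49-fold lower. STRA6, a retinol uptake receptor, had 85.2 in mid/hindgut, 838 in foregut and 212 in early endoderm, 2.49-fold lower. The degrading CYP26 enzymes differed among themselves. CYP26C1 had 34.4 in mid/hindgut, 2235 in foregut and 165 in early endoderm, 4.79-fold lower, and CYP26B1 had 123 in mid/hindgut, 184 in foregut and 24.7 in early endoderm, 4.98-fold higher near the floor. CYP26A1 had 574 in mid/hindgut, 82.6 in foregut and 248 in early endoderm, 2.31-fold higher, a call lost without scaling.

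Of 81 cytochromes P450 and dehydrogenases 14 were higher (17.3%) and 6 lower (7.41%). Of 88 redox genes 13 were higher (14.8%) and 3 lower (3.41%). Over all measured genes, 8.12% were higher and 5.13% lower, so more higher than lower calls are not particular to these lists. Their median log2 differences were 0.18 and 0.14. SULT1C3, a cytosolic sulfotransferase, had 269 in mid/hindgut, 26.5 in foregut and 5.69 in early endoderm, at least 12.1-fold higher. UGT1A1, which conjugates bilirubin and drugs with glucuronic acid, had 238 in mid/hindgut, 18.4 in foregut and 39.8 in early endoderm, 5.97-fold higher. CYP2C23a had 173 in mid/hindgut, 19.9 in foregut and 12.3 in early endoderm, at least 7.82-fold higher, and CYP2C23b had 143 in mid/hindgut, 28.4 in foregut and 16.8 in early endoderm, at least 6.46-fold higher, though similar genes of this family may share signal. SELENOP1, selenoprotein P, the plasma carrier of selenium, had 589 in mid/hindgut, 145 in foregut and 28.2 in early endoderm, 20.9-fold higher near the floor. The metallothioneins, which bind zinc and copper, were higher as a pair. MT4 had 1997 in mid/hindgut, 274 in foregut and 507 in early endoderm, 3.94-fold higher, and MT3 had 610.2 in mid/hindgut, 37.3 in foregut and 152 in early endoderm, 4.01-fold higher. The bright antioxidant genes TXN, PRDX1 and SOD1 were within 2-fold. With the median over probe sets the log2 difference was 1.06 for SELENOP1 in place of 4.38, 1.80 for SULT1C3 in place of 3.60, 1.48 for CYP2C23a in place of 2.97 and 2.03 for CYP2C23b in place of 2.69.

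Among 28 digestive and brush border proteins 7 were higher and 1 lower. ANPEP, aminopeptidase N, had 196 in mid/hindgut, 234 in foregut and 44.0 in early endoderm, 4.46-fold higher. DPP4, a brush border dipeptidase, had 196 in mid/hindgut, 14.8 in foregut and 22.7 in early endoderm, 8.63-fold higher near the floor, but within 2-fold over the median of its probe sets. PLA2G10L, a phospholipase A2 family gene, was the lower one, with 81.3 in mid/hindgut, 217 in foregut and 1120.2 in early endoderm, 13.8-fold, which also did not hold over the median of its probe sets. PGA3, a pepsinogen gene that is in none of the lists, had 19.8 in mid/hindgut, 80.2 in foregut and 753 in early endoderm, at least 34.0-fold lower. In amino acid and nucleotide metabolism 11 of 98 genes were higher and 1 lower. ENPP3, a surface enzyme that cleaves nucleotides, had 352 in mid/hindgut, 81.6 in foregut and 0.866 in early endoderm, at least 15.9-fold higher. FAH, the last enzyme of tyrosine breakdown, had 409.5 in mid/hindgut, 122 in foregut and 36.2 in early endoderm, 11.3-fold higher. ASS1, of arginine synthesis, had 47.7 in mid/hindgut, 438 in foregut and 177 in early endoderm, 3.70-fold lower. In sterol and fatty acid synthesis 7 of 45 were higher and 2 lower, among them the fatty acid elongases ELOVL7, with 374 in mid/hindgut and 121 in early endoderm, and ELOVL6, with 579.8 in mid/hindgut and 233 in early endoderm. ENPP3 had a log2 difference of 2.52 as the median over its probe sets, in place of 3.99.

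Core metabolism differed little. Of 97 genes of respiration and the citric acid cycle 1 was higher and 0 lower, and of 67 mitochondrial ribosomal proteins 0 were called in either direction. Of 68 cytosolic ribosomal proteins 1 was higher, RPS27L, and 0 lower, and of 203 cell cycle and replication genes 3 were higher and 4 lower. In glycolysis and glucose metabolism 1 of 32 was higher and 3 lower. The lactate dehydrogenase subunits differed within this list. LDHA, the subunit of anaerobic tissues, had 622 in mid/hindgut, 3303 in foregut and 2245 in early endoderm, 3.61-fold lower, and LDHB had 12120.4 in mid/hindgut, 7325 in foregut and 7279 in early endoderm, 1.67-fold higher and so within 2-fold. GAPDH had 11260.5 in mid/hindgut and 11207 in early endoderm.

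**Figure D4:**
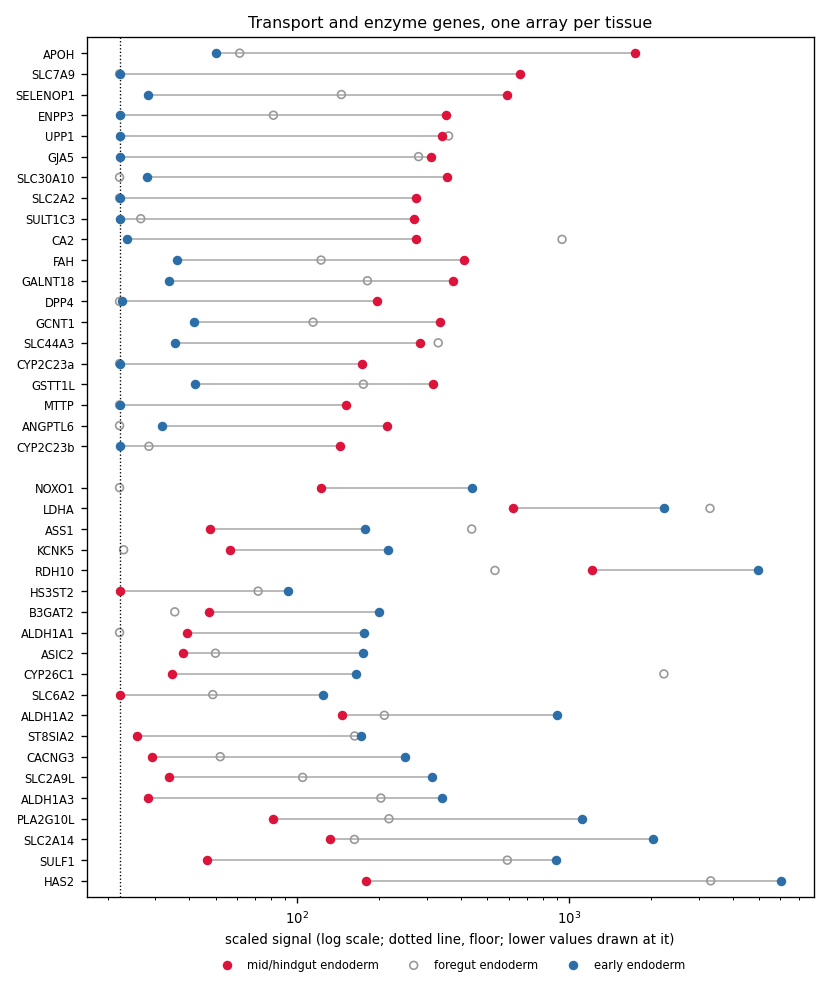
Scaled signal (log scale) of the 20 highest and the 20 lowest named genes of the transport and enzyme lists, with mid/hindgut endoderm in red, foregut in open grey and early endoderm in blue, 1 array each, and values below the floor of 22.1 (dotted) drawn at it. SLC7A9 and SLC2A2 are high in mid/hindgut alone, with 658 and 274, and HAS2 is low in mid/hindgut, with 179, against 3324 in foregut and 6009 in early endoderm.

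Among 50 cadherin and desmosome genes 9 were higher and 9 lower. CDH1, E-cadherin, the cadherin of epithelia, had 554 in mid/hindgut, 607 in foregut and 227 in early endoderm, 2.44-fold higher. CDH2, N-cadherin, had 2317 in mid/hindgut, 1278 in foregut and 7155 in early endoderm, 3.09-fold lower. CTNNB1, the beta-catenin that binds both, had 8377 in mid/hindgut and 8602 in early endoderm. Desmosomes, which anchor keratin filaments at cell contacts, were represented among the higher genes by 4 members. PKP2, plakophilin 2, had 4045 in mid/hindgut, 585 in foregut and 296 in early endoderm, 13.7-fold higher. DSG2, a desmosomal cadherin, had 278 in mid/hindgut, 117 in foregut and 72.9 in early endoderm, 3.82-fold higher, and DSC1 had 124 in mid/hindgut, 43.8 in foregut and 39.4 in early endoderm, 3.14-fold higher. DSP, desmoplakin, had 1506 in mid/hindgut, 446 in foregut and 507 in early endoderm, 2.97-fold higher. All 4 had their highest signal in mid/hindgut, but they were picked from the higher genes, DSP after its value was seen. EVPL, envoplakin, a partner of desmoplakin in squamous epithelia, went the other way, with 121 in mid/hindgut, 201 in foregut and 269 in early endoderm, a 2.22-fold difference that did not hold over the median of its probe sets. PKP4, of the same family as PKP2, was within 2-fold, with 1334 in mid/hindgut, 1869 in foregut and 1153 in early endoderm. CDH17, a cadherin of intestinal epithelium, had 97.5 in mid/hindgut, 0.583 in foregut and 7.27 in early endoderm, at least 4.41-fold higher, a call lost with the floor at the 60th percentile. CDH5, the cadherin of endothelium, had 4331 in mid/hindgut, 2535 in foregut and 5.16 in early endoderm, at least 196-fold higher, beside the other endothelial markers. For CDH17 the median over probe sets was a log2 difference of 1.47 in place of 2.14.

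Integrins were called higher in 7 of 27 (25.9%) and lower in 1 (3.70%), beside 8.12% and 5.13% over all measured genes. Of the 27, 24 were above the floor on both arrays compared. The higher calls of ITGA1 and ITGA8 were lost with the floor at the 60th percentile and that of ITGB3 without scaling. Those of ITGA8 and ITGB3 were also lost over the median of probe sets. The lower one, ITGA4, whose dimers bind fibronectin, had 292 in mid/hindgut, 1041 in foregut and 6379.6 in early endoderm, 21.8-fold lower. ITGB4 and ITGA6 form the laminin receptor of hemidesmosomes. ITGB4 had 286 in mid/hindgut, 86.6 in foregut and 55.2 in early endoderm, 5.19-fold higher, and ITGA6 had 692 in mid/hindgut, 800.1 in foregut and 266 in early endoderm, 2.60-fold higher. ITGB1, the common beta chain, had 3116 in mid/hindgut, 3192 in foregut and 3041 in early endoderm. Tight junction genes were called higher in 5 of 47, 2 of them the endothelial genes CLDN5 and ESAM, and lower in 2. The call of ESAM was lost without scaling. With probe sets combined by their median, the log2 difference was -2.49 for ITGA4 and 1.52 for ITGB4, in place of -4.45 and 2.38.

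Among 63 immunoglobulin-type and other adhesion molecules 9 were higher and 14 lower. FLRT1, a leucine-rich transmembrane protein that binds FGF receptors and latrophilins, had 9632 in mid/hindgut, 2.33 in foregut and 60.4 in early endoderm, 159.6-fold higher. The related FLRT3 had 1010.0 in mid/hindgut, 1256 in foregut and 975 in early endoderm. Several lower members are best known from axons. NTM had 16.7 in mid/hindgut, 93.9 in foregut and 207 in early endoderm, at least 9.33-fold lower, and KIRREL3 had 17.2 in mid/hindgut, 179.9 in foregut and 184 in early endoderm, at least 8.31-fold lower. CNTNAP5 and NFASC were 16.8-fold and 11.3-fold lower by their brightest probe set, the second near the floor, but both within 2-fold over the median of their probe sets. Tetraspanins and related four-pass proteins were higher in 13 of 45 (28.9%) and lower in 4 (8.89%), beside 8.12% and 5.13% over all measured genes. TSPAN8, a tetraspanin of digestive epithelia, had 1419 in mid/hindgut, 14.3 in foregut and 44.8 in early endoderm, 31.7-fold higher. CMTM8 had 497 in mid/hindgut, 2471 in foregut and 2702 in early endoderm, 5.43-fold lower. For NTM the median over probe sets was a log2 difference of -1.61 in place of -3.22.

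Guidance molecules were evenly split, with 9 of 58 higher and 9 lower. SLIT2 and its receptor ROBO2 were both among the higher genes. SLIT2 had 190.0 in mid/hindgut, 93.6 in foregut and 50.1 in early endoderm, 3.79-fold higher, and ROBO2 had 128 in mid/hindgut, 69.5 in foregut and 20.4 in early endoderm, at least 5.77-fold higher. EFNB2, an ephrin ligand, had 84.2 in mid/hindgut, 130.3 in foregut and 597 in early endoderm, 7.09-fold lower. In the cytoskeleton, 13 of 122 keratin, filament and actin regulator genes were higher and 13 lower. SCIN, scinderin, an actin-severing protein, had 995 in mid/hindgut, 71.6 in foregut and 113 in early endoderm, 8.80-fold higher. MYO7A, a myosin of microvilli and hair cells, had 218 in mid/hindgut, 27.5 in foregut and 28.3 in early endoderm, 7.71-fold higher near the floor. STMN2, a microtubule regulator of neurons, had 8.88 in mid/hindgut, 12.2 in foregut and 178 in early endoderm, at least 8.03-fold lower. ANXA8L1, an annexin, had 45.5 in mid/hindgut, 241 in foregut and 1006 in early endoderm, 22.1-fold lower, while ACTB differed little, with 11254 in mid/hindgut and 11683 in early endoderm. The median over probe sets was a log2 difference of 1.15 for ROBO2, 1.62 for MYO7A and -3.65 for ANXA8L1, in place of 2.53, 2.95 and -4.47.

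In the BMP, Nodal and TGF-beta pathway 6 of 47 genes were higher and 9 lower. CFC1, the membrane co-receptor of Nodal, had 149 in mid/hindgut, 698 in foregut and 3674 in early endoderm, 24.7-fold lower. GDF3, a ligand that acts with Nodal, had 31.7 in mid/hindgut, 21.6 in foregut and 433 in early endoderm, 13.7-fold lower near the floor. LEFTY1, an inhibitor induced by Nodal, had 16.4 in mid/hindgut, 6.96 in foregut and 90.6 in early endoderm, at least 4.09-fold lower, a call lost with the floor at the 60th percentile. The co-receptor, this ligand, the inhibitor and the convertases above all had lower signal in mid/hindgut than in early endoderm. They were named for ranking among the lowest genes of their lists, so this shared direction follows from the choice. It is not a result about the pathway, in which 6 of 47 genes were higher. The intracellular transducers differed from each other. SMAD3 had 577 in mid/hindgut, 199.8 in foregut and 95.1 in early endoderm, 6.07-fold higher, SMAD2 had 498 in mid/hindgut, 532 in foregut and 1063 in early endoderm, 2.13-fold lower, and SMAD9 had 102 in mid/hindgut, 107 in foregut and 674 in early endoderm, 6.62-fold lower. Among the ID genes, targets of BMP signalling, ID3 and ID1 were higher and ID2 within 2-fold. ID3 had 882 in mid/hindgut, 609 in foregut and 269.8 in early endoderm, and ID1 had 1576 in mid/hindgut, 4938 in foregut and 599.5 in early endoderm, while ID2 had 5059 in mid/hindgut, 4795 in foregut and 4715 in early endoderm.

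In the Wnt pathway 7 of 48 genes were higher and 10 lower. WNT5A, a ligand of posterior tissues, had 1277 in mid/hindgut, 277 in foregut and 299 in early endoderm, 4.27-fold higher. WNT8A, a ligand of the primitive streak, had 165 in mid/hindgut, 16.8 in foregut and 677 in early endoderm, 4.10-fold lower. Among the frizzled receptors, FZD8 had 47.2 in mid/hindgut, 1178 in foregut and 592 in early endoderm, 12.6-fold lower, and FZD5 had 80.4 in mid/hindgut, 103 in foregut and 399 in early endoderm, 4.97-fold lower. FZD4 went the other way, with 263 in mid/hindgut, 833 in foregut and 94.8 in early endoderm, 2.77-fold higher. LGR5, a receptor for R-spondins and a marker of intestinal stem cells in the mouse, had 134 in mid/hindgut, 106 in foregut and 37.5 in early endoderm, 3.58-fold higher. As medians over probe sets, FZD8 had a log2 difference of -1.71 and FZD5 of -1.05, in place of -3.65 and -2.31.

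In the FGF pathway 7 of 46 genes were higher, FLRT1 among them, and 4 lower. FGF18, a secreted ligand, had 218 in mid/hindgut, 299 in foregut and 1122 in early endoderm, 5.15-fold lower, and FGF8 had 157 in mid/hindgut, 526 in foregut and 348 in early endoderm, 2.21-fold lower. DUSP5, a nuclear phosphatase induced by ERK that inactivates it, had 326 in mid/hindgut, 317 in foregut and 3085 in early endoderm, 9.45-fold lower. FGFR2 was within 2-fold, with 1971 in mid/hindgut, 717 in foregut and 2314 in early endoderm. Of 22 Notch genes, 18 of them above the floor on both arrays, 4 were higher and 0 lower. Of 13 Hedgehog genes, 12 of them above it on both, 3 were higher and 0 lower. Genes measured through mid/hindgut alone could not have been called lower. All 4 Notch calls were lost under some alternative. JAG2 and NOTCH1 lost theirs over the median of probe sets, HES5 with the floor at the 60th percentile and LFNG without scaling, and in the Hedgehog list SCUBE2 lost its call under 4 alternatives. SHH, the Hedgehog ligand made by gut epithelium and notochord, had 181 in mid/hindgut, 37.3 in foregut and 18.7 in early endoderm, at least 8.19-fold higher, and its receptor PTCH1 had 511 in mid/hindgut, 766 in foregut and 223 in early endoderm, 2.29-fold higher, a call lost without scaling and over the median of probe sets. Notochord markers, SHH among them, had 2 of 9 higher and 1 lower and summed to 4121 in mid/hindgut, 3193 in foregut and 6115 in early endoderm. GLI3, a transcription factor of the pathway, had 396 in mid/hindgut, 269 in foregut and 198 in early endoderm, just under the 2-fold limit. NOTCH1 had 672 in mid/hindgut, 659 in foregut and 117 in early endoderm, 5.76-fold higher by its brightest probe set and within 2-fold over the median of them.

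Other receptor tyrosine kinases, their ligands and phosphatases were higher in 18 of 67 (26.9%) and lower in 6 (8.96%), beside 8.12% and 5.13% over all measured genes. Only 48 of the 67 were above the floor on both arrays compared, and a gene measured through mid/hindgut alone could not have been called lower. Among the higher genes TEK, FLT1 and FLT4 are receptors of endothelium, and the call of FLT4 did not hold over the median of its probe sets. KITLG, stem cell factor, had 385 in mid/hindgut, 138 in foregut and 45.2 in early endoderm, 8.52-fold higher. PDGFRA, a receptor of early mesendoderm and mesenchyme, had 29.1 in mid/hindgut, 17.9 in foregut and 198 in early endoderm, 6.80-fold lower near the floor. EGFR was 2.88-fold lower, with 79.0 in mid/hindgut and 228 in early endoderm. In the insulin and growth hormone pathway 4 of 26 were higher and 3 lower. IGF1R had 1389 in mid/hindgut, 1812 in foregut and 494 in early endoderm, 2.81-fold higher, and IGFBP1, a binding protein for these growth factors, had 29.3 in mid/hindgut, 2.30 in foregut and 231 in early endoderm, 7.87-fold lower near the floor. TEK and FLT1 had log2 differences of 3.57 and 3.37 as medians over their probe sets, in place of 5.02 and 4.66.

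Among 143 G protein-coupled receptors and regulators 18 were higher (12.6%) and 13 lower (9.09%). F2RL2, a receptor of the thrombin family, had 1130.1 in mid/hindgut, 492 in foregut and 0.684 in early endoderm, at least 51.0-fold higher. RGS20, which switches off G proteins, had 24.4 in mid/hindgut, 4.69 in foregut and 402 in early endoderm, 16.5-fold lower near the floor. In cyclic nucleotide signalling 7 of 102 were higher and 7 lower, at or near the share over all genes. ADCY7, an adenylate cyclase, had 306 in mid/hindgut, 86.9 in foregut and 16.7 in early endoderm, at least 13.8-fold higher, and RAPGEF3, an exchange factor switched on by cyclic AMP, had 407 in mid/hindgut, 58.8 in foregut and 16.7 in early endoderm, at least 18.4-fold higher. AKAP12, which anchors protein kinase A, had 2323 in mid/hindgut, 1377 in foregut and 7567 in early endoderm, 3.26-fold lower. RASGRP3, an exchange factor that activates Ras, had 1133 in mid/hindgut, 564 in foregut and 221 in early endoderm, 5.14-fold higher, whereas RAPGEF2, an exchange factor for Rap, had 723 in mid/hindgut, 1407 in foregut and 2540.1 in early endoderm, 3.51-fold lower. Medians over probe sets were a log2 difference of 1.10 for ADCY7 and 2.10 for RAPGEF3, in place of 3.79 and 4.20.

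**Figure D5:**
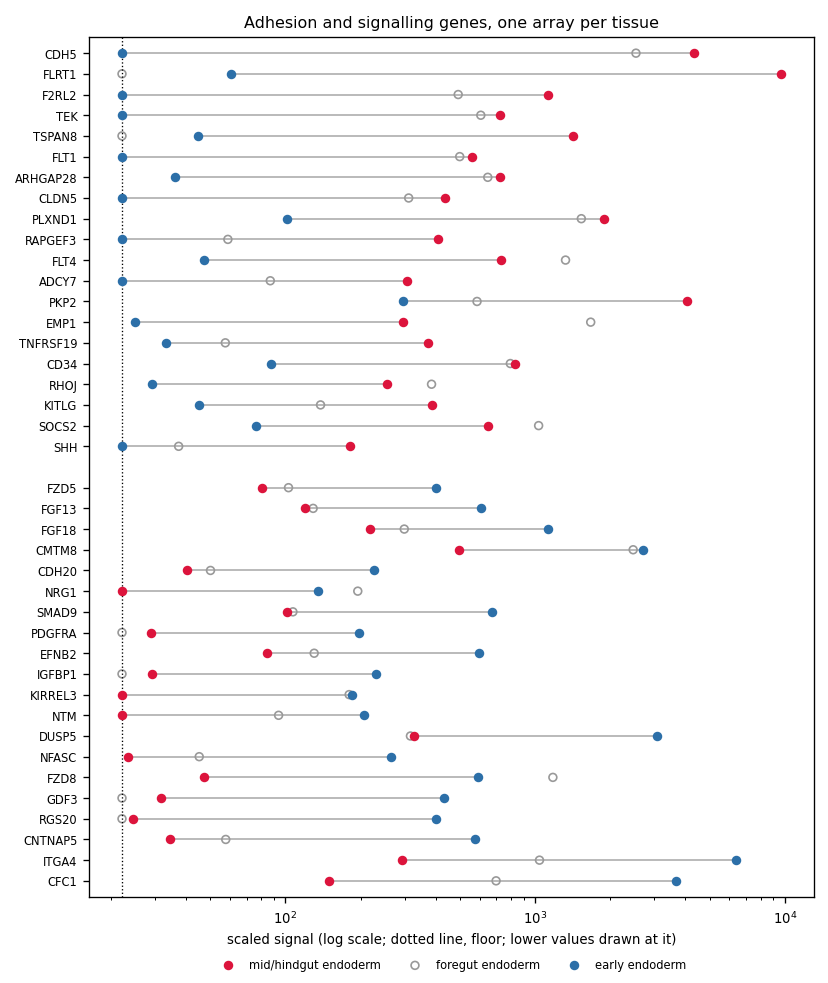
Scaled signal (log scale) of the 20 highest and the 20 lowest named genes of the adhesion and signalling lists, with mid/hindgut endoderm in red, foregut in open grey and early endoderm in blue, 1 array each, and values below the floor of 22.1 (dotted) drawn at it. The upper block mixes endothelial genes such as CDH5, 4331 in mid/hindgut against 5.16 in early endoderm, with FLRT1, TSPAN8 and PKP2, and in the lower block CFC1 and ITGA4 start from 3674 and 6379.6 in early endoderm.

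Of 65 homeobox genes other than HOX genes 15 were higher (23.1%) and 13 lower (20%), beside 8.12% and 5.13% over all measured genes. Only 46 of the 65 were above the floor on both arrays compared. A gene measured through mid/hindgut alone could not have been called lower, nor one measured through early endoderm alone higher. NKX6-1, a homeodomain factor of the pancreas and neural tube, had 2436 in mid/hindgut, 281 in foregut and 38.5 in early endoderm, 63.3-fold higher. PITX1, a factor of the hind part of the body, had 499 in mid/hindgut, 65.4 in foregut and 12.1 in early endoderm, at least 22.5-fold higher. CDX2, the regulator of intestinal identity, had 1694 in mid/hindgut, 8.27 in foregut and 479.7 in early endoderm, 3.53-fold higher. Each of these was high in mid/hindgut and lower in foregut. OTX2, a factor of the anterior embryo, had 29.8 in mid/hindgut, 3110.4 in foregut and 2101 in early endoderm, 70.4-fold lower near the floor, and GSC, of the organizer and prechordal tissue, had 9.72 in mid/hindgut, 300.5 in foregut and 558 in early endoderm, at least 25.2-fold lower. MIXL1 and EOMES, which drive mesendoderm formation, were lower in both later tissues. MIXL1 had 31.8 in mid/hindgut, a value near the floor, 3.12 in foregut and 389.7 in early endoderm, and EOMES had 60.7 in mid/hindgut, 79.1 in foregut and 598 in early endoderm. By the median over probe sets OTX2 had a log2 difference of -5.48 and MIXL1 of -1.81, in place of -6.14 and -3.62.

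Of the SOX, forkhead, GATA and T-box list 14 of 83 were higher, among them the endothelial genes SOX18, whose early signal was near the floor, FLI1 and ERG, and 9 lower. Among 89 basic helix-loop-helix, zinc finger and nuclear receptor genes 11 were higher and 5 lower. NR5A2, a nuclear receptor of liver, pancreas and intestine, had 535 in mid/hindgut, 92.4 in foregut and 28.7 in early endoderm, 18.6-fold higher near the floor. The snail factors, repressors of E-cadherin that act in gastrulation, went in opposite directions. SNAI2 had 108 in mid/hindgut, 107 in foregut and 740.4 in early endoderm, 6.83-fold lower, and SNAI1 had 537 in mid/hindgut, 535 in foregut and 171 in early endoderm, 3.14-fold higher. GREB1, an oestrogen-induced gene in human cells, had 2756 in mid/hindgut, 523 in foregut and 7.39 in early endoderm, at least 124-fold higher. Among 157 chromatin genes 8 were higher (5.10%) and 4 lower (2.55%), both below the shares over all measured genes. JARID2, a subunit of Polycomb complex 2, had 905 in mid/hindgut, 1123 in foregut and 3406 in early endoderm, 3.76-fold lower, and SMARCA2, a catalytic subunit of the SWI/SNF remodeller, had 318 in mid/hindgut, 267 in foregut and 61.1 in early endoderm, 5.20-fold higher. The median over probe sets was a log2 difference of 3.41 for NR5A2, 5.15 for GREB1 and 1.19 for SMARCA2, in place of 4.22, 6.96 and 2.38.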

How the data were processed

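Total RNA of 3 pooled samples was hybridised to 1 array each. The deposited signal is a linear fluorescence intensity per probe set, made by the authors with MAS5, per the submitters' processing notes, whose version is not given in the sources used here. Of 38535 probe sets 37693 are chicken, and 27178 list 1 gene. Each array was scaled to a common 2% trimmed mean with Python 3.11.15, numpy 2.4.6 and pandas 2.3.3, and figures were drawn with matplotlib 3.10.9. The floor is the 40th percentile of chicken probe sets. A gene took its brightest probe set over the 3 arrays, and similar genes may share signal. A call is a 2-fold difference, with no test, since each group is 1 array, and precision is limited by the number of arrays.

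Named genes were the 30 highest and 30 lowest, HOX genes and uncharacterised loci aside, and per list up to 6 highest and 6 lowest called genes and up to 3 bright genes within 2-fold. FGA, CYP26A1, DSP, EVPL, SMAD2 and CDX2 fall outside that rule and were chosen after their values were seen. Genes and lists were chosen with earlier results of these data known, and symbol matching of the lists was corrected after list values were seen. The scripts were tested on simulated data. Alternatives covered scaling, floor, pseudocount, choice of probe set and threshold. The count of 1 signalling list is not reported here.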

Additional observations from a re-analysis of the deposited data

Results flagged for a closer look

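Chicken probe sets without a single assigned gene lay outside the comparison of genes. Of these, 5407 were above the floor on either array. Among them 368 were at least 2-fold higher in mid/hindgut than in early endoderm and 271 at least 2-fold lower. Neither was a larger share than the 8.12% higher and 5.13% lower over all measured genes. These probe sets are unnamed here, and no gene was given to them.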

How the results depend on the processing

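With 1 array per tissue the spread between pools is unknown. No paired analysis was possible because each tissue has 1 array and no replicate numbers. The count of 872 higher genes became 1385 with the floor at the 20th percentile, 519 at the 60th, 1784 with no floor and 413 at 3-fold. The count of 551 lower genes became 895, 358, 1239 and 246 under the same settings, and 849, beside 629 higher, without scaling. Without probe sets that may bind several transcripts, 3 genes reversed, NCAM1 to a log2 difference of 0.45, NOXO1 to 0.34 and SLC38A7 to -0.062. Of 508 called named genes 304 lost their call under none of the alternatives that gave them a value, but not every gene had one, since 377 had a value with genes above the floor on both arrays, 474 with the higher floor and 460 without shared probe sets. Some alternatives could not take a call away. Keeping only genes above the floor on both arrays leaves each difference unchanged, and dropping the floor can only widen a called one. Of 759 recomputed list medians 729 moved little, 30 moved and 0 reversed.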

Other observations

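Further genes were far lower in mid/hindgut than in early endoderm. CCDC3, a secreted coiled-coil protein, had 35.1 in mid/hindgut, 116 in foregut and 3059.8 in early endoderm, 87.1-fold lower by its brightest probe set, a log2 difference of -6.45, and -2.38 over the median of its probe sets. LMO1, a LIM-domain cofactor of transcription, had 17.8 in mid/hindgut, 38.5 in foregut and 569.6 in early endoderm, at least 25.7-fold lower. SERTM1, a membrane protein, had 102 in mid/hindgut, 271 in foregut and 2209 in early endoderm, 21.7-fold lower. These 3 were low in both later tissues. EYA2, a cofactor of homeodomain proteins counted in the SOX, forkhead, GATA and T-box list, had 43.4 in mid/hindgut, 1223 in foregut and 962 in early endoderm, 22.1-fold lower, and was low in mid/hindgut alone.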
